A study of Homo sapiens with 20 samples.

Results

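Fatty acid and glycerolipid synthesis was described across 38 genes, from the regulator SREBF1 through the enzymes that supply acetyl-CoA, build, lengthen, desaturate and activate fatty acids, to those that join them to glycerol. The genes were chosen by name, with earlier results of these data known. Shares set against those of all probes therefore describe this list and do not test it. Every probe carrying any of these symbols was a member if above background on 2 or more of the 20 arrays. Above background means a detection p below 0.05. In all, 35 of the 38 genes had an annotated probe, with 60 probes between them, of which 52 met the detection rule. ACSL3, AGPAT3 and LPIN3 were without a named probe. A test needed detection on 10 or more arrays, which left 47 member probes and at least 1 for each of the 35 genes, among 21189 tested probes of 47319 and 11864 named genes with a tested probe. Where a gene had several tested probes, the value of the one detected on most arrays, then with the highest mean, is given, and the others are given where they differed.

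The study exposed 5 established human cell lines of triple-negative breast cancer (TNBC), which lacks the estrogen and progesterone receptors and HER2 amplification, to wound-healing fluid (WHF), collected from surgical drains after breast surgery. By the study's classes SUM149 and MDA-MB-468 are basal-like, and BT549, MDA-MB-157 and MDA-MB-231 are mesenchymal-like. WHF-treated cells received a pool of fluids from breast cancer patients at 5% in RPMI medium for 48 h. Untreated cells received the medium without fluid for the same time, and all cells of both groups had first been kept 24 h without serum. For each line and treatment there were 2 samples, replicates A and B, on 1 array each. The paper's methods describe a pool of 5 fluids for each experiment, and whether A and B received the same pool is not stated. The comparison asks what WHFs do to the expression of these genes. Its control is serum-free medium, so WHF-treated cells also differ from untreated cells in receiving the proteins and lipids of a body fluid, and no serum control was compared here.

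Cells make palmitate from acetyl-CoA, which ATP citrate lyase and the acetyl-CoA synthetases provide in the cytosol, through acetyl-CoA carboxylase and fatty acid synthase. Elongases and desaturases turn palmitate and dietary fatty acids into longer and unsaturated ones, acyl-CoA synthetases activate them, and acyltransferases, lipins and diacylglycerol acyltransferases build phosphatidic acid, diacylglycerol and triglyceride. Many of these genes are targets of the sterol regulatory element-binding proteins, and raised lipogenesis is a known trait of many tumors.

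On each array, 19693 to 22456 probes were detected in WHF-treated cells and 20793 to 22865 in untreated cells. Median bead signals ran from 123 to 155 with WHFs and from 117 to 163 without. The most similar array was of the same line and treatment for 20 of 20 arrays. Among receptor genes, ESR1 was above background on 4 of 4 SUM149 and 4 of 4 MDA-MB-468 arrays, PGR on 4 of 4 MDA-MB-157 arrays, and ERBB2 on 20 of 20, between 9.45 and 9.99 with WHFs and between 9.39 and 9.94 without on the log2 scale. Of 10 markers of leukocytes, adipocytes and red cells, PTPRC, CD3E, PLIN1 and HBA1 were detected on 0 of 20 arrays, ADIPOQ and HBB on 1 each, LYZ on 5 and FABP4 on 11, while LEP was detected on 20 of 20. CD14 was detected on 20 of 20 arrays, with a log2 fold-change of 0.85 over the lines, 2.41 in SUM149 and 1.49 in MDA-MB-468. The summed linear signal of the 4 leukocyte markers ran from 287 to 4963 with WHFs and from 276 to 2005 without, and that of the 4 adipocyte markers from 495 to 2528 with WHFs and from 542 to 1853 without. By the paper's methods, the fluids were centrifuged on collection and passed through a syringe filter before cells received them. The part of such cells in the results was not tested.

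In WHF-treated cells most of the synthesis genes had lower mean levels. Over the 5 lines, 27 of the 35 genes had a negative mean log2 fold-change (WHF-treated minus untreated) and 8 a positive one. Their median was -0.25, against 0.01 over all 21189 probes. By limma, with replicates A and B averaged and the line as a block, 3 genes fell at an adjusted p under 0.1, against 0.0566% of all tested probes, and 0 rose, against 0.0189%. They were SCD, the main stearoyl-CoA desaturase, at -1.56 ± 0.14 (SE, n = 5 lines, adjusted p = 0.0403), LPIN1, the phosphatidate phosphatase lipin 1, at -1.34 ± 0.16 (adjusted p = 0.0692), and ACSS2, the cytosolic acetyl-CoA synthetase, at -0.98 ± 0.12 (adjusted p = 0.0692). These are 2.96-fold, 2.53-fold and 1.97-fold lower levels. At an unadjusted p under 0.05, 15 genes were lower, against 10.0% of all probes, and 2 were higher, against 9.32%. With each pair of line and replicate letter as a block in limma, 15 genes fell and 2 rose at an adjusted p under 0.1, against 12.9% and 12.4% of all probes. That fit counts the 2 pairs of a line as independent. Without MDA-MB-231, BT549 or MDA-MB-157, 0 genes passed the averaged fit, without SUM149 or MDA-MB-468 only SCD did, and without replicate A 1 gene did, while the SCD mean stayed between -1.67 and -1.50. In bulk RNA, fewer cells that express a gene and less RNA per cell cannot be told apart.

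Agreement between lines was common among the lower genes. A negative log2 fold-change in 5 of 5 lines was seen for 13 genes, against 8.36% of all probes, and a positive one for 2 genes, DGAT1 and ELOVL7, against 9.5%. Of the 13, FADS2 was at -0.019 in MDA-MB-157 and -0.007 in MDA-MB-468, where its arrays overlapped at or near background. For 10 genes, ACLY, ACSS2, ACACA, ACACB, FASN, TECR, SCD, SCD5, FADS1 and LPIN1, both WHF-treated arrays lay below both untreated arrays in 5 of 5 lines, against 1.78% of all probes. ACACB was not above background on any BT549 array, so its order there is that of background signal. For 0 genes did they lie above in 5 of 5 lines, against 1.48%. The plot of changes by gene and line shows that SCD, SCD5, FADS1, FASN, ACLY, ACSS2 and LPIN1 lay left of 0 in each line while most elongases and acyltransferases lay around it.

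**Figure D1:**
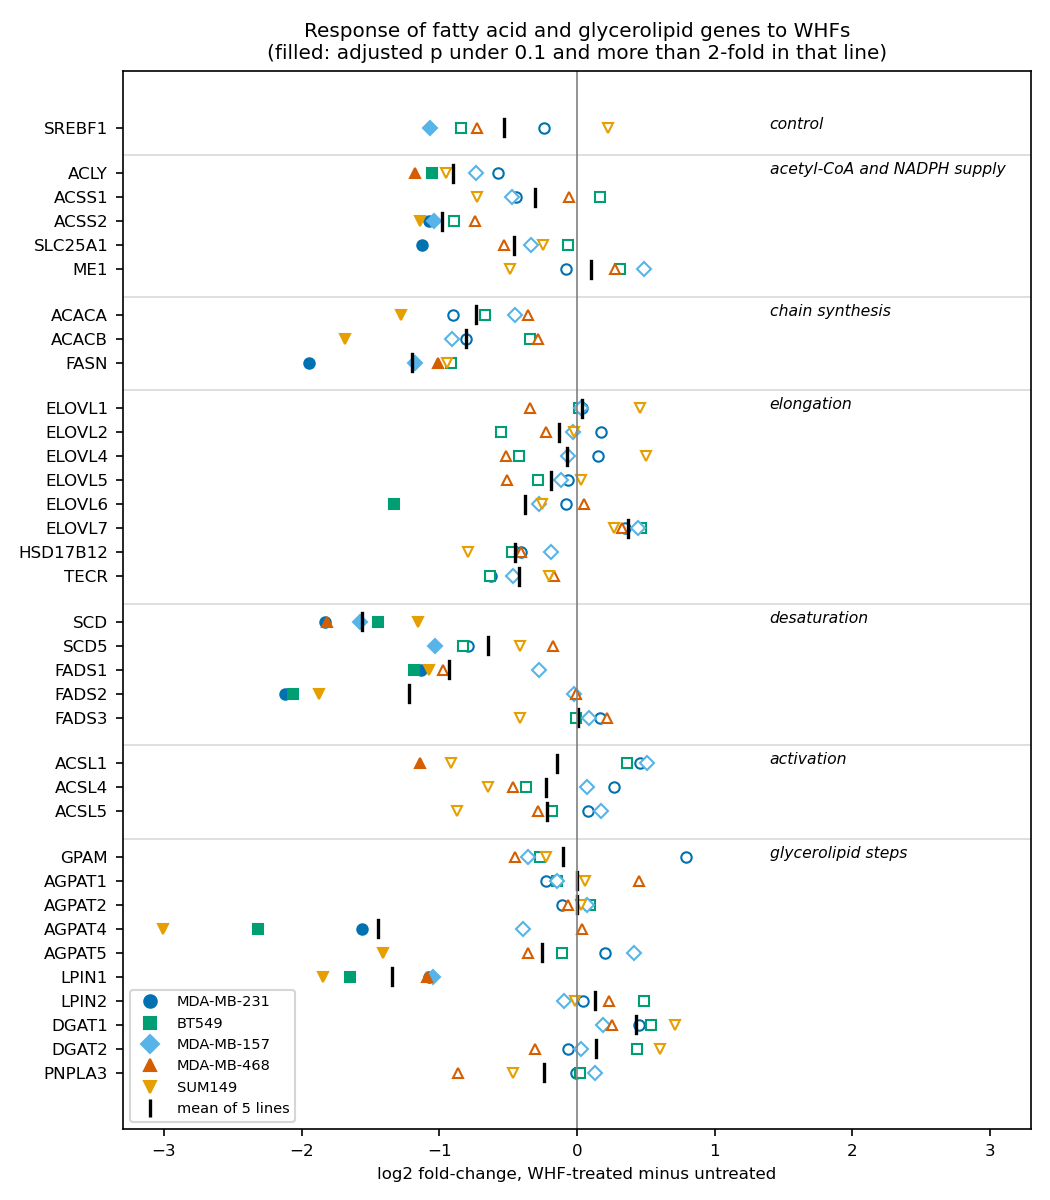
Log2 fold-change (WHF-treated minus untreated, horizontal axis) of the 35 tested genes in each of 5 lines, grouped by step; filled symbols passed an adjusted p under 0.1 and more than 2-fold in that line, and black bars are means of the 5 lines. SCD and LPIN1 are filled in 5 of 5 lines, and the lowest value is AGPAT4 in SUM149, at -3.01.

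The promoters of the 3 genes that fell over the lines are shown because these genes moved together in 5 of 5 lines. Each sequence is the 250 bases upstream of a RefSeq transcription start on GRCh38.p14, plus strand, written 5′ to 3′. Capitals mark matches, on either strand, to CCAAT (the box bound by NF-Y) and to GGGCGG (the GC box bound by Sp1), which accompany sites of the sterol regulatory element-binding proteins in many lipogenic promoters. Matches to TCACNCCAC, a sterol regulatory element, and to CACGTG, an E-box that reads the same on both strands, were also searched. SCD lies at chr10:100346983-100347232, ACSS2 at chr20:34874739-34874988 (start 1) and chr20:34876362-34876611 (start 2), and LPIN1 at chr2:11677294-11677543 (start 1), chr2:11724065-11724314 (start 2) and chr2:11746382-11746631 (start 3).
SCD: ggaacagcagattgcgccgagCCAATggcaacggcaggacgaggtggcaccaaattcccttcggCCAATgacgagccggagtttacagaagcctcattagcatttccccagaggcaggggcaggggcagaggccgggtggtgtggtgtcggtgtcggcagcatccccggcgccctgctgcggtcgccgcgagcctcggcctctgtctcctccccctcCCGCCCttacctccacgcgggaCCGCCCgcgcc
ACSS2 start 1: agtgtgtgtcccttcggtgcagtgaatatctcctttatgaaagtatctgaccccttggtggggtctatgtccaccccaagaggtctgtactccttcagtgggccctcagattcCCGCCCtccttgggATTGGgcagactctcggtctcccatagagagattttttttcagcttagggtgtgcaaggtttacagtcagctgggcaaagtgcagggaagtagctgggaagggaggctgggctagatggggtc
ACSS2 start 2: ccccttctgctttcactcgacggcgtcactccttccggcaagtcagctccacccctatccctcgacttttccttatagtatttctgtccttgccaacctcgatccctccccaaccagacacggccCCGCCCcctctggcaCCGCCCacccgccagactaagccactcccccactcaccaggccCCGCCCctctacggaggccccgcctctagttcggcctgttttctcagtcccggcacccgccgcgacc
LPIN1 start 1: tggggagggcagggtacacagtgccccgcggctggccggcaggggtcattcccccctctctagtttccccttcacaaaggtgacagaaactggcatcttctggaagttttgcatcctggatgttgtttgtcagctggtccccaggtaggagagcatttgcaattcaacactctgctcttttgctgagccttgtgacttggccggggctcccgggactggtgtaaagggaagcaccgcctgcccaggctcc
LPIN1 start 2: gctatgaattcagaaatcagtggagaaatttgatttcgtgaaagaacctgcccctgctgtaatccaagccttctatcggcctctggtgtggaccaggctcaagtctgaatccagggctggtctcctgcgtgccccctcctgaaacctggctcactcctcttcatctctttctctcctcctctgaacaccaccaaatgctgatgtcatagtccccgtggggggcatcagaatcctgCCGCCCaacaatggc
LPIN1 start 3: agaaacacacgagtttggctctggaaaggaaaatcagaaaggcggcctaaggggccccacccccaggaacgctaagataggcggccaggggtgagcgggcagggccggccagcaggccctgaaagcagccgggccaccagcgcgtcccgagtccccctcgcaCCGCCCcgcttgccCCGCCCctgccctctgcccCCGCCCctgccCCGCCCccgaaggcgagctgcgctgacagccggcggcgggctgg
The SCD window held 2 CCAAT and 2 GGGCGG matches. ACSS2 start 1 held 1 of each and start 2 held 3 GGGCGG, while LPIN1 held 0, 1 and 4 GGGCGG at starts 1, 2 and 3 and 0 CCAAT. The other motifs had 0 matches in these 6 windows. Of 35116 RefSeq windows of this length, 32% held CCAAT, 42.6% GGGCGG, 0.883% TCACNCCAC and 6.34% CACGTG. Of the 52 windows of 31 member genes, 22 held CCAAT, 36 GGGCGG, 1 TCACNCCAC (ACSL1) and 3 CACGTG (ELOVL4, ELOVL5 and LPIN2).

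SREBF1 encodes sterol regulatory element-binding protein 1, the membrane-bound transcription factor that drives much of this pathway. It was lower in 4 of 5 lines and higher in SUM149. SREBF1 in MDA-MB-231 gave 9.23 and 9.21 in WHF-treated cells, against 9.49 and 9.43 in untreated cells. SREBF1 in BT549 was 11.37 and 11.31 with WHFs and 12.31 and 12.05 without. SREBF1 in MDA-MB-157 stood at 8.66 and 8.84 in treated cells, against 9.92 and 9.71 in untreated cells. Treated and untreated arrays did not overlap in these 3 lines, and the gap was smallest in MDA-MB-231. SREBF1 in MDA-MB-468 measured 10.34 and 9.94 in WHF-treated cells and 10.77 and 10.97 in untreated cells. SREBF1 in SUM149 read 11.33 and 11.64 with WHFs, against 11.21 and 11.32 without. The arrays were apart in these lines too, with the treated ones below in MDA-MB-468 and narrowly above in SUM149. Only in MDA-MB-157 did SREBF1 pass both limits for a single line, an adjusted p under 0.1 and more than 2-fold, at -1.07 ± 0.17 (SE, 2 arrays a group, adjusted p = 0.00188 by limma). This call was lost at -0.92 with the authors' intensities and at -0.98 and -0.96 with treated or untreated replicate A left out. BT549 at -0.84 and MDA-MB-468 at -0.73 passed the adjusted p alone. The mean over the lines was -0.53 ± 0.20 (SE, n = 5), with an adjusted p of 0.211 (0.0335 with the replicate block), and the response differed between lines by limma's F test for an interaction of line and treatment (adjusted p = 0.00511). A second tested probe gave -0.46 ± 0.18 over the lines, -0.84 in MDA-MB-157, under 2-fold, and 0.19 in SUM149.

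Of the 5 genes that supply acetyl-CoA and NADPH, ACSS2 fell over the lines and ACLY came close. ACSS2 makes acetyl-CoA from acetate in the cytosol and nucleus. ACSS2 in MDA-MB-231 gave 11.24 and 11.29 in WHF-treated cells, against 12.30 and 12.38 in untreated cells. ACSS2 in BT549 was 12.70 and 11.66 with WHFs and 13.01 and 13.14 without. ACSS2 in MDA-MB-157 stood at 10.84 and 10.91 in treated cells, against 12.03 and 11.80 in untreated cells. The treated arrays were below the untreated ones in each of these lines, although the BT549 treated arrays lay far apart. ACSS2 in MDA-MB-468 measured 12.63 and 12.58 in WHF-treated cells and 13.27 and 13.42 in untreated cells. ACSS2 in SUM149 read 12.90 and 13.26 with WHFs, against 14.18 and 14.27 without. No overlap was seen in the basal-like lines either. ACSS2 fell in SUM149 (-1.14 ± 0.24, adjusted p = 0.00295 by limma), MDA-MB-231 (-1.07 ± 0.24, adjusted p = 0.00651) and MDA-MB-157 (-1.04 ± 0.24, adjusted p = 0.0201), and BT549 passed the adjusted p alone. A second probe gave -1.03 ± 0.12 over the lines, and the other gave 0.00 ± 0.23, with 0.96 in BT549 (adjusted p = 0.0804). By limma the second probe fell in BT549 at -1.03 (adjusted p = 0.0117) and was under 2-fold in MDA-MB-157, at -0.98. With the mean of the 3 probes, ACSS2 was at -0.67 over the lines and lost its call (adjusted p = 0.133).

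ACLY, ATP citrate lyase, cuts citrate from mitochondria into acetyl-CoA, and it had log2 fold-changes of -0.57 in MDA-MB-231, -1.06 in BT549, -0.74 in MDA-MB-157, -1.18 in MDA-MB-468 and -0.95 in SUM149. It fell in BT549 (adjusted p = 0.000128) and MDA-MB-468 (adjusted p = 0.000442) and passed the adjusted p alone in the other 3 lines. Its mean was -0.90 ± 0.13 over the lines, just short of the threshold (adjusted p = 0.105, and 0.000378 with the replicate block), and a second probe gave -0.76 ± 0.14. By limma that probe fell in SUM149 at -1.04 (adjusted p = 0.000947) and was under 2-fold in BT549, at -0.97, and in MDA-MB-468, at -0.91. In MDA-MB-231 it was at -0.33 and passed neither limit (adjusted p = 0.246). SLC25A1, the carrier that exports citrate from mitochondria, fell in MDA-MB-231 at -1.12 ± 0.22 (adjusted p = 0.00301) and was between -0.53 and -0.06 in the other 4 lines. ACSS1, the mitochondrial acetyl-CoA synthetase, was at -0.44 in MDA-MB-231, 0.17 in BT549, -0.47 in MDA-MB-157, -0.05 in MDA-MB-468 and -0.73 in SUM149. It passed the adjusted p alone in SUM149, where it was not above background on the treated arrays and was detected on 1 of 2 untreated arrays. ME1, cytosolic malic enzyme, which yields NADPH, was at -0.08 in MDA-MB-231, 0.31 in BT549, 0.49 in MDA-MB-157, 0.27 in MDA-MB-468 and -0.49 in SUM149, and SUM149 passed the adjusted p alone.

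Chain synthesis has 3 genes, and all 3 were lower in 5 of 5 lines. FASN encodes fatty acid synthase, which assembles palmitate. FASN in MDA-MB-231 gave 10.47 and 10.81 in WHF-treated cells, against 12.54 and 12.62 in untreated cells. FASN in BT549 was 13.55 and 12.82 with WHFs and 14.03 and 14.16 without. FASN in MDA-MB-157 stood at 11.86 and 12.29 in treated cells, against 13.42 and 13.08 in untreated cells. FASN was lower on every treated array than on either untreated array of the line, with the widest gap in MDA-MB-231. FASN in MDA-MB-468 measured 13.10 and 13.01 in WHF-treated cells and 14.21 and 13.91 in untreated cells. FASN in SUM149 read 14.20 and 14.55 with WHFs, against 15.35 and 15.30 without. These 2 lines had no overlap either. FASN fell in MDA-MB-231 (-1.95 ± 0.23, adjusted p = 7.06e-05), MDA-MB-157 (-1.18 ± 0.23, adjusted p = 0.00746) and MDA-MB-468 (-1.01 ± 0.23, adjusted p = 0.0236). BT549 and SUM149, at -0.91 and -0.95, passed the adjusted p but not the 2-fold limit. Over the lines FASN was at -1.20 ± 0.17 (SE, n = 5), 2.3-fold lower, with an adjusted p of 0.105 (0.00115 with the replicate block).

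ACACA and ACACB are the acetyl-CoA carboxylases that make malonyl-CoA, ACACA for synthesis in the cytosol and ACACB at the mitochondrial surface, where malonyl-CoA restrains fatty acid oxidation. ACACA had log2 fold-changes of -0.90 in MDA-MB-231, -0.66 in BT549, -0.45 in MDA-MB-157, -0.35 in MDA-MB-468 and -1.28 in SUM149. It fell in SUM149 (adjusted p = 8.74e-05), where the treated arrays were at 10.78 and 10.83 and the untreated arrays at 12.00 and 12.17. Its mean was -0.73 ± 0.16 over the lines (adjusted p = 0.143, and 0.00413 with the replicate block), and its second probe gave -0.76 ± 0.13. ACACB was close to background in most lines. It was not above background on any array of BT549 or on the treated arrays of MDA-MB-231 and MDA-MB-157, where its measured differences were -0.81 and -0.91. In MDA-MB-157 the level was at least 1.57-fold lower than in untreated cells. For this bound the untreated mean was set against the lowest signal with a detection p below 0.05 on each treated array. ACACB fell in SUM149, at 6.21 and 5.50 with WHFs against 7.55 and 7.53 without (-1.69 ± 0.18, adjusted p = 1.77e-05), with 1 of the 2 treated arrays above background. With the authors' intensities that change was -0.88 and lost its call, and the mean over the lines was -0.43, against -0.81 ± 0.21 here. In MDA-MB-468, which had ACACB above background on 4 of 4 arrays, the difference was -0.29 (adjusted p = 0.485). Both carboxylases differed between lines by the F test (adjusted p = 0.0374 for ACACA and 0.00487 for ACACB). The second ACACA probe did not pass that test (adjusted p = 0.300).

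The 8 elongation genes were near 0 for the most part, and 0 were called over the lines. HSD17B12, the ketoacyl-CoA reductase of the elongation cycle, had the largest mean change of the step. HSD17B12 in MDA-MB-231 gave 12.57 and 12.35 in WHF-treated cells, against 13.10 and 12.64 in untreated cells. HSD17B12 in BT549 was 11.55 and 11.40 with WHFs and 11.97 and 11.93 without. HSD17B12 in MDA-MB-157 stood at 12.22 and 11.87 in treated cells, against 12.46 and 12.00 in untreated cells. The MDA-MB-231 and BT549 arrays did not overlap between treatments, while those of MDA-MB-157 did. HSD17B12 in MDA-MB-468 measured 13.29 and 13.07 in WHF-treated cells and 13.66 and 13.50 in untreated cells. HSD17B12 in SUM149 read 13.14 and 13.13 with WHFs, against 13.87 and 13.98 without. In both basal-like lines treated arrays were below untreated ones. The mean was -0.45 ± 0.13 over the lines (adjusted p = 0.161, and 0.00865 with the replicate block), and SUM149 at -0.79 and BT549 at -0.47 passed the adjusted p alone. TECR, the enoyl-CoA reductase that closes the same cycle, was at -0.63 in MDA-MB-231, -0.64 in BT549, -0.46 in MDA-MB-157, -0.16 in MDA-MB-468 and -0.20 in SUM149, and it passed the adjusted p alone in the 3 mesenchymal-like lines.

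The condensing elongases differ in the chains they prefer, and they did not move as 1 group. ELOVL6 lengthens palmitate to stearate. It fell in BT549, at 9.92 and 9.78 in treated cells against 11.12 and 11.24 in untreated cells (-1.33 ± 0.17, adjusted p = 4.91e-05). It was at -0.25 in SUM149, -0.08 in MDA-MB-231 and -0.28 in MDA-MB-157, and it was not above background on any MDA-MB-468 array. Its second probe gave -1.20 in BT549. The ELOVL6 response differed between lines (F test adjusted p = 0.00323). ELOVL5, which lengthens polyunsaturated fatty acids, ranged from -0.51 in MDA-MB-468 to 0.03 in SUM149, and ELOVL1, which makes very long saturated chains, from -0.34 to 0.46 in the same lines. ELOVL4, which makes the longest chains, was at -0.42, -0.07, -0.52 and 0.50 in BT549, MDA-MB-157, MDA-MB-468 and SUM149 and not above background in MDA-MB-231. ELOVL2, another elongase of polyunsaturated chains, was not above background in MDA-MB-231 or SUM149 and was at -0.55, -0.03 and -0.23 in the other 3. ELOVL7, an elongase of long saturated chains, was higher in 5 of 5 lines, from 0.27 to 0.46, with a mean of 0.37 ± 0.11 (adjusted p = 0.168, and 0.0151 with the replicate block). Its signal was low, the mean was 0.18 with the authors' intensities, and in 4 lines at least 1 array was not above background.

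Desaturation held the clearest change. SCD inserts the first double bond into stearate and palmitate, giving oleate and palmitoleate. SCD in MDA-MB-231 gave 11.49 and 11.52 in WHF-treated cells, against 13.50 and 13.17 in untreated cells. SCD in BT549 was 14.48 and 13.95 with WHFs and 15.67 and 15.65 without. SCD in MDA-MB-157 stood at 11.62 and 11.60 in treated cells, against 13.51 and 12.87 in untreated cells. Every treated array lay more than 1 below each untreated array of its line. SCD in MDA-MB-468 measured 13.00 and 12.90 in WHF-treated cells and 14.74 and 14.80 in untreated cells. SCD in SUM149 read 14.32 and 14.33 with WHFs, against 15.48 and 15.47 without. The gap between treatments was again wider than that between replicates. SCD fell in 5 of 5 lines, by 1.83 ± 0.20 in MDA-MB-231, 1.44 ± 0.20 in BT549, 1.58 ± 0.20 in MDA-MB-157, 1.82 ± 0.20 in MDA-MB-468 and 1.15 ± 0.20 in SUM149 on the log2 scale, with adjusted p between 3.84e-05 and 0.000803. No left-out array ended a single-line call of SCD. A call in 5 of 5 lines was made for SCD and LPIN1 and for 0.0142% of all probes. The 5 SCD responses did not pass the F test for a difference between lines (adjusted p = 0.255). On the untreated BT549 arrays the SCD bead signal, 59632 and 58439, was close to the highest on the array, 66774 and 67291, and whether this compressed the BT549 value was not tested.

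**Figure D2:**
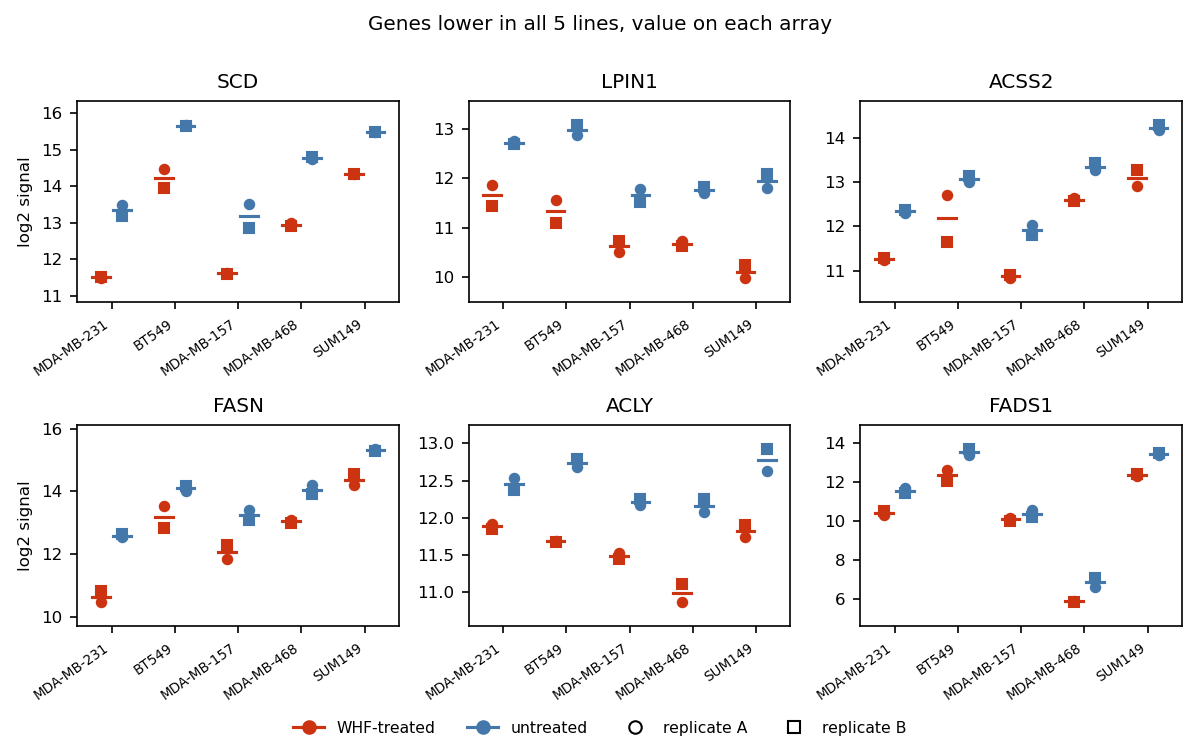
Log2 signal (vertical axis) of SCD, LPIN1, ACSS2, FASN, ACLY and FADS1 on each array, by line, with WHF-treated cells in red left of untreated cells in blue; circles are replicate A, squares replicate B and bars their mean. In all 6 panels both treated arrays lie below both untreated arrays in 5 of 5 lines.

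SCD5, the second human stearoyl-CoA desaturase, had a smaller mean change than SCD. Its log2 fold-changes were -0.79 in MDA-MB-231, -0.83 in BT549, -1.03 in MDA-MB-157, -0.17 in MDA-MB-468 and -0.42 in SUM149, and it fell in MDA-MB-157 (adjusted p = 0.00865). That call was lost at -0.81 with the authors' intensities, at -0.94 with an offset of 50, at -0.73 with the mean of both probes, and at -0.84 and -0.86 with treated replicate A or untreated replicate B left out. The mean was -0.65 ± 0.15 over the lines (adjusted p = 0.149, and 0.00740 with the replicate block), or -0.38 with the mean of both probes. A second, weaker SCD5 probe differed. It was at -0.90 in BT549, where treated arrays were not above background, and at 0.92 in SUM149, where all 4 arrays were (adjusted p = 0.00723).

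FADS1 and FADS2 are the delta-5 and delta-6 desaturases that make long polyunsaturated fatty acids. FADS1 in MDA-MB-231 gave 10.32 and 10.50 in WHF-treated cells, against 11.68 and 11.41 in untreated cells. FADS1 in BT549 was 12.61 and 12.07 with WHFs and 13.39 and 13.67 without. FADS1 in MDA-MB-157 stood at 10.17 and 10.01 in treated cells, against 10.55 and 10.19 in untreated cells. FADS1 arrays did not overlap, and the gap in MDA-MB-157 was small. FADS1 in MDA-MB-468 measured 5.91 and 5.86 in WHF-treated cells and 6.63 and 7.10 in untreated cells. FADS1 in SUM149 read 12.33 and 12.43 with WHFs, against 13.40 and 13.50 without. FADS1 signal was far lower in MDA-MB-468 than in the other 4 lines, in both treatments. It fell in MDA-MB-231 (-1.13 ± 0.21, adjusted p = 0.00175), BT549 (-1.19 ± 0.21, adjusted p = 0.000631) and SUM149 (-1.07 ± 0.21, adjusted p = 0.00159), passed the adjusted p alone in MDA-MB-468 (-0.98) and was at -0.28 in MDA-MB-157. The mean over the lines was -0.93 ± 0.16 (adjusted p = 0.12, and 0.00218 with the replicate block).

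FADS2 in MDA-MB-231 gave 6.70 and 6.53 in WHF-treated cells, against 8.74 and 8.72 in untreated cells. FADS2 in BT549 was 8.83 and 8.30 with WHFs and 10.51 and 10.75 without. FADS2 in SUM149 read 8.30 and 8.60 with WHFs, against 10.15 and 10.51 without. FADS2 fell in all 3 of these lines, at -2.12 ± 0.21, -2.07 ± 0.21 and -1.88 ± 0.21 (adjusted p = 2.06e-05, 8.43e-06 and 2.49e-05). FADS2 in MDA-MB-157 stood at 5.78 and 5.51 in treated cells, against 5.59 and 5.73 in untreated cells. FADS2 in MDA-MB-468 measured 5.76 and 5.24 in WHF-treated cells and 5.46 and 5.55 in untreated cells. In MDA-MB-157 and MDA-MB-468 it was at or near background in both treatments, with 1 of 2 treated and 2 of 2 untreated arrays detected in MDA-MB-157 and 1 of 2 treated and 0 of 2 untreated arrays in MDA-MB-468. The arrays overlapped there. FADS2 had the smallest F test p of the 35 genes (adjusted p = 0.000115), and its mean over the lines, -1.22 ± 0.37, was not called (adjusted p = 0.17, and 0.0162 with the replicate block). FADS3, which lies in the same gene cluster, ranged from -0.41 to 0.22 and was called in 0 lines.

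The acyl-CoA synthetases, which activate fatty acids for use in lipids or oxidation, changed in both directions. ACSL4, which prefers arachidonate, had the largest mean change of the 3 tested. ACSL4 in MDA-MB-231 gave 11.93 and 11.68 in WHF-treated cells, against 11.46 and 11.62 in untreated cells. ACSL4 in BT549 was 10.82 and 10.52 with WHFs and 11.04 and 11.05 without. ACSL4 in MDA-MB-157 stood at 9.86 and 9.80 in treated cells, against 9.76 and 9.75 in untreated cells. The treated arrays were above the untreated ones in MDA-MB-231 and MDA-MB-157 and below them in BT549. ACSL4 in MDA-MB-468 measured 10.12 and 9.82 in WHF-treated cells and 10.26 and 10.61 in untreated cells. ACSL4 in SUM149 read 10.86 and 10.82 with WHFs, against 11.59 and 11.39 without. Both basal-like lines had lower treated arrays. SUM149 passed the adjusted p alone (-0.65 ± 0.17, adjusted p = 0.011), and the response differed between lines (F test adjusted p = 0.0307). The mean was -0.23 ± 0.16. A second probe passed the adjusted p in both directions, at 0.78 in MDA-MB-231 (adjusted p = 0.0963) and -0.84 in SUM149 (adjusted p = 0.0605).

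ACSL1, the major long-chain acyl-CoA synthetase of fat and liver, is given on every array because its direction differed, a choice made after its values were seen. ACSL1 in MDA-MB-231 gave 9.73 and 10.17 in WHF-treated cells, against 9.65 and 9.32 in untreated cells. ACSL1 in BT549 was 9.31 and 9.28 with WHFs and 9.02 and 8.84 without. ACSL1 in MDA-MB-157 stood at 8.76 and 8.60 in treated cells, against 8.20 and 8.15 in untreated cells. In the 3 mesenchymal-like lines treated arrays were above untreated ones. ACSL1 in MDA-MB-468 measured 10.26 and 10.20 in WHF-treated cells and 11.27 and 11.48 in untreated cells. ACSL1 in SUM149 read 11.03 and 11.44 with WHFs, against 12.08 and 12.22 without. In the 2 basal-like lines they were below. ACSL1 fell in MDA-MB-468 at -1.14 ± 0.18 (adjusted p = 0.00269). SUM149 at -0.92 ± 0.18 (adjusted p = 0.0022) and MDA-MB-231 at 0.46 ± 0.18 (adjusted p = 0.0991) passed the adjusted p alone, in opposite directions. BT549 at 0.36 and MDA-MB-157 at 0.51 passed neither limit. The F test gave an adjusted p of 0.00037. ACSL5, another long-chain synthetase, was not above background in BT549 or MDA-MB-157, was at 0.08 in MDA-MB-231 and -0.28 in MDA-MB-468, and at -0.87 ± 0.19 in SUM149 (adjusted p = 0.00315, under 2-fold). Untested ACSL5 probes, detected on fewer arrays, did not agree. In SUM149 one was lower, by -1.51 and -1.53 in replicates A and B. Another was above background on 2 of 2 treated and 0 of 2 untreated arrays in MDA-MB-231 and in SUM149. Its level was at least 1.68-fold and 1.23-fold higher there.

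**Figure D3:**
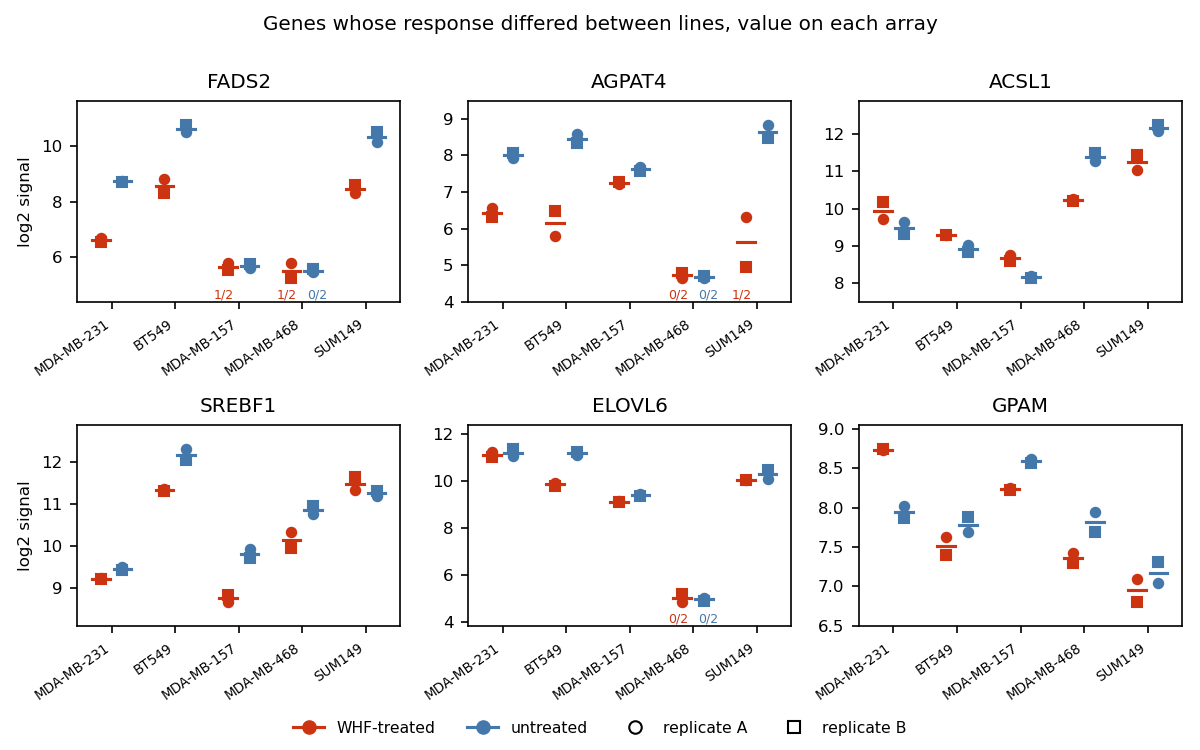
Log2 signal (vertical axis) of 6 genes whose response differed between lines by limma's F test, on each array, with WHF-treated cells in red left of untreated cells in blue; circles are replicate A, squares replicate B, bars their mean, and 0/2 or 1/2 the arrays above background where not both were. ACSL1 is higher with WHFs in the 3 mesenchymal-like lines and lower in the 2 basal-like lines, while FADS2 is at or near background in MDA-MB-157 and MDA-MB-468, and AGPAT4 in MDA-MB-468.

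The 10 tested glycerolipid genes held both the second-largest shared change and the largest single one. LPIN1 removes the phosphate of phosphatidic acid to give diacylglycerol, and lipin 1 also acts with transcription factors in the nucleus. LPIN1 in MDA-MB-231 gave 11.88 and 11.43 in WHF-treated cells, against 12.76 and 12.69 in untreated cells. LPIN1 in BT549 was 11.57 and 11.10 with WHFs and 12.89 and 13.08 without. LPIN1 in MDA-MB-157 stood at 10.51 and 10.73 in treated cells, against 11.79 and 11.53 in untreated cells. Treated arrays were below untreated ones throughout these lines. LPIN1 in MDA-MB-468 measured 10.72 and 10.63 in WHF-treated cells and 11.70 and 11.84 in untreated cells. LPIN1 in SUM149 read 9.98 and 10.23 with WHFs, against 11.80 and 12.10 without. The same held here. LPIN1 fell in 5 of 5 lines, at -1.07 ± 0.20 in MDA-MB-231, -1.65 ± 0.20 in BT549, -1.04 ± 0.20 in MDA-MB-157, -1.09 ± 0.20 in MDA-MB-468 and -1.85 ± 0.20 in SUM149, with adjusted p between 1.45e-05 and 0.00604. Leaving out 1 array took LPIN1 below 2-fold in MDA-MB-231 (treated replicate B left out, -0.85) and in MDA-MB-157 (replicate A of either treatment left out, -0.93 and -0.91). The sizes differed between lines (F test adjusted p = 0.0752). LPIN2, a phosphatase of the same family, was between -0.10 and 0.49 and passed both limits in 0 lines.

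AGPAT4, a member of the family that acylates lysophosphatidic acid to phosphatidic acid, fell in 3 lines. AGPAT4 in MDA-MB-231 gave 6.55 and 6.32 in WHF-treated cells, against 7.93 and 8.06 in untreated cells. AGPAT4 in BT549 was 5.80 and 6.48 with WHFs and 8.57 and 8.34 without. AGPAT4 in SUM149 read 6.32 and 4.94 with WHFs, against 8.81 and 8.47 without. The treated arrays lay far below the untreated arrays, and in SUM149 1 of the 2 treated arrays was not above background. AGPAT4 fell in MDA-MB-231, BT549 and SUM149, at -1.56 ± 0.32, -2.32 ± 0.32 and -3.01 ± 0.32 (adjusted p = 0.00353, 9.25e-05 and 1.35e-05). AGPAT4 in MDA-MB-157 stood at 7.21 and 7.27 in treated cells, against 7.69 and 7.58 in untreated cells. AGPAT4 in MDA-MB-468 measured 4.66 and 4.79 in WHF-treated cells and 4.65 and 4.72 in untreated cells. The MDA-MB-157 difference, -0.39, was not called, and AGPAT4 was not above background on any MDA-MB-468 array. Its response differed between lines (F test adjusted p = 0.000693), and the mean over the lines, -1.45 ± 0.42, had an adjusted p of 0.164 (0.0146 with the replicate block). With the authors' intensities the changes were smaller, -0.94 in MDA-MB-231, where the call was lost, -1.42 in BT549, -1.82 in SUM149 and -0.88 over the lines. FADS2, FADS1 and AGPAT4 were called lower in the same 3 lines, MDA-MB-231, BT549 and SUM149. These lines also had the largest shares of all probes called lower, 3.83%, 6.37% and 6.5%, against 1.36% in MDA-MB-157 and 0.779% in MDA-MB-468. FADS2 and AGPAT4 were at or near background in MDA-MB-468, as was FADS2 in MDA-MB-157. FADS1 in MDA-MB-468, at -0.98, was just under 2-fold.

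The other acyltransferases of the family had smaller mean changes. AGPAT5 fell in SUM149, at 7.54 and 7.84 with WHFs against 8.97 and 9.23 without (-1.41 ± 0.20, adjusted p = 0.000157), and was between -0.36 and 0.41 in the other 4 lines (F test adjusted p = 0.00176). AGPAT1 ranged from -0.23 to 0.45 and AGPAT2, the isoform known from congenital lipodystrophy, from -0.11 to 0.10. A second AGPAT2 probe gave 0.23 ± 0.12 over the lines. GPAM, the mitochondrial glycerol-3-phosphate acyltransferase that takes the first step, was at 0.79 in MDA-MB-231, -0.27 in BT549, -0.36 in MDA-MB-157, -0.45 in MDA-MB-468 and -0.23 in SUM149. It passed the adjusted p alone in MDA-MB-231 (adjusted p = 0.00327), with treated arrays at 8.73 and 8.74 and untreated arrays at 8.01 and 7.86, and its response differed between lines (F test adjusted p = 0.00364). A second GPAM probe had the same sign in each line, with -0.86 in MDA-MB-468 (adjusted p = 0.00748).

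At the last step to triglyceride no enzyme was called. DGAT1, a diacylglycerol acyltransferase, was higher in 5 of 5 lines, at 0.45 in MDA-MB-231, 0.54 in BT549, 0.19 in MDA-MB-157, 0.26 in MDA-MB-468 and 0.71 in SUM149. Its mean was 0.43 ± 0.13 (adjusted p = 0.168, and 0.0101 with the replicate block), and 3 lines, MDA-MB-231, BT549 and SUM149, passed the adjusted p alone. DGAT2, an unrelated enzyme for the same reaction, was not above background in MDA-MB-157, and its replicates disagreed in MDA-MB-231, at 7.02 and 5.30 with WHFs against 5.70 and 6.74 without. In BT549, MDA-MB-468 and SUM149 it was at 0.43, -0.30 and 0.60. PNPLA3, a lipase and acyltransferase of lipid droplets, was not above background in MDA-MB-231 and MDA-MB-157. In MDA-MB-468 it was above background on 0 of 2 treated and 2 of 2 untreated arrays, at least 1.34-fold lower (adjusted p = 0.0241), and in SUM149 it was at -0.47.

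Isoforms of 1 step were compared within each line, as the log2 fold-change of one minus that of the other, for all 32 pairs in the SCD, FADS, ACSS, ACAC, ACSL, LPIN, DGAT, AGPAT and ELOVL families. In 11 pairs the difference had the same sign in 5 of 5 lines. LPIN1 changed by -1.47 ± 0.22 relative to LPIN2 (SE, n = 5 lines), FADS2 by -1.23 ± 0.45 and FADS1 by -0.94 ± 0.18 relative to FADS3, and SCD by -0.92 ± 0.20 relative to SCD5. ACSS1 was at 0.67 ± 0.11 relative to ACSS2, but at 0.36 ± 0.11 with the mean of a gene's probes, when 1 line had the opposite sign and 10 pairs were left. AGPAT1 was at 1.45 ± 0.53 relative to AGPAT4 and DGAT1 at 0.29 ± 0.10 relative to DGAT2. The other 4 pairs lay among the elongases, with ELOVL2, ELOVL5 and ELOVL6 at -0.50 ± 0.15, -0.56 ± 0.11 and -0.75 ± 0.27 relative to ELOVL7, and ELOVL1 at 0.23 ± 0.06 relative to ELOVL5. An exact sign-flip permutation test over 5 lines, 2-sided, gave p = 0.0625 for each of the 11, which is the smallest it allows, and 0.182 after Benjamini-Hochberg adjustment over the 32 pairs. The design thus cannot pass 0.05 for any pair. Some of these pairs include lines where 1 member was not above background in either treatment. These were ELOVL2 in MDA-MB-231 and SUM149, ELOVL6 and AGPAT4 in MDA-MB-468 and DGAT2 in MDA-MB-157. The differences there rest on the other member. FADS2 was at or near background in both treatments in MDA-MB-157 and MDA-MB-468, so its difference from FADS3 there rests largely on FADS3. ACACA and ACACB differed by 0.07 ± 0.15 (exact p = 0.688) and FADS1 and FADS2 by 0.29 ± 0.39 (exact p = 0.562), with both signs among the lines.

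**Figure D4:**
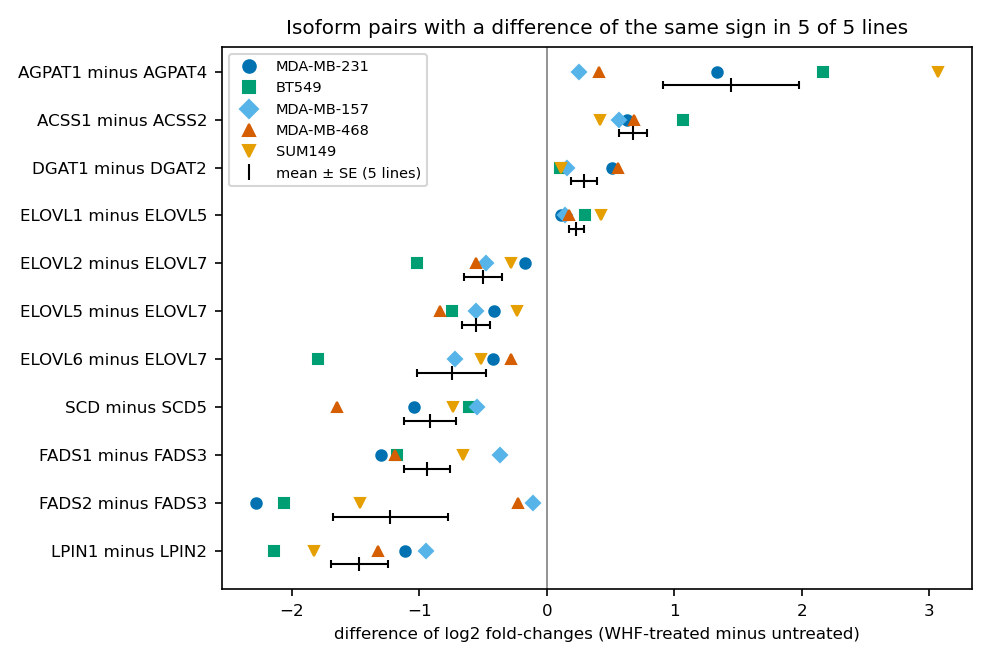
Difference between the log2 fold-changes (WHF-treated minus untreated) of 2 isoforms, horizontal axis, in each line (symbols) and as mean ± SE over 5 lines (black), for the 11 of 32 pairs with the same sign in 5 of 5 lines. LPIN1 minus LPIN2 has the most negative mean, -1.47, and AGPAT1 minus AGPAT4 the most positive, 1.45.

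Counted by line with limma, with an adjusted p under 0.1 and more than 2-fold, 8 of 35 genes fell in MDA-MB-231, against 3.83% of all probes, 7 in BT549, against 6.37%, and 6 in MDA-MB-157, against 1.36%. In MDA-MB-468, 5 fell, against 0.779%, and in SUM149 9 fell, against 6.5%. Calls in the other direction were 0 of 35 in each line, against 2.8%, 4.53%, 1.03%, 0.826% and 3.9% of all probes in MDA-MB-231, BT549, MDA-MB-157, MDA-MB-468 and SUM149. Median log2 fold-changes of the genes were -0.11, -0.34, -0.14, -0.34 and -0.47 in the same order of lines, while those of all probes lay between 0.00 and 0.02. SCD, LPIN1 and FASN were among the calls of the lines with the fewest calls over all probes, MDA-MB-157 and MDA-MB-468. In MDA-MB-157 the 6 calls were 1, SCD, without treated replicate A and 3 without untreated replicate A. Without the fold limit, 13 genes were lower and 3 higher in MDA-MB-231 (13.3% and 11.4% of all probes), 15 and 2 in BT549 (18.2% and 16.6%), 9 and 0 in MDA-MB-157 (4.35% and 4.56%), 8 and 0 in MDA-MB-468 (2.99% and 3.17%), and 17 and 2 in SUM149 (17.8% and 14.5%). Those shares of higher genes lay below the background in each line. In all, 16 genes were called lower in at least 1 line, against 13.7% of all probes, and 7 in at least 3 lines, against 1.09%. Those 7 were SCD, LPIN1, FASN, ACSS2, FADS1, FADS2 and AGPAT4. Called higher in at least 1 line were 0, against 9.88%. The response differed between lines for 16 of 35 genes by the F test, against 41.1% of all probes, a share close to that of the array.

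**Figure D5:**
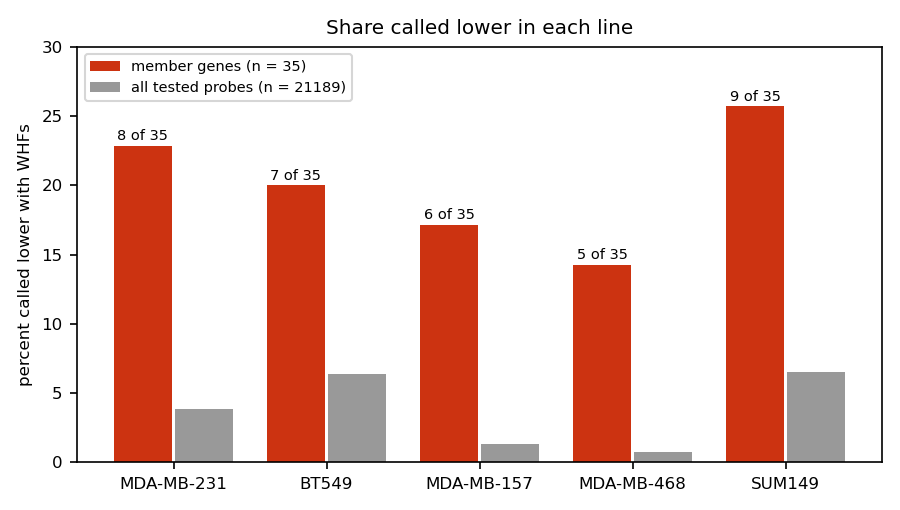
Percent called lower with WHFs (adjusted p under 0.1 and more than 2-fold, vertical axis, from 0) in each line, for the 35 genes (red) and for all 21189 tested probes (grey). The share of the genes ran from 5 of 35 in MDA-MB-468 to 9 of 35 in SUM149, and that of all probes from 0.779% to 6.5% in the same lines.

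Other genes of lipid metabolism, in 3 further lists, had 0 calls over the lines, where 0.0566% of all probes were called lower and 0.0189% higher, so the count says nothing particular of these lists. Of 13 tested regulators of lipogenesis, 9 were lower and 4 higher, with a median of -0.10. INSIG1, the sterol-regulated anchor that retains the SREBP complex in the endoplasmic reticulum, was lower in 5 of 5 lines (mean -1.10 ± 0.35, adjusted p = 0.176) and fell in MDA-MB-468 by 2.95 (adjusted p = 2.72e-07). NR1H3, the liver X receptor alpha, fell in MDA-MB-231 at -1.29, INSIG2 in BT549 at -1.17 and TRIB3 in SUM149 at -1.90, while PPARG, the fat cell regulator, rose in MDA-MB-157 at 1.30. Of 26 further synthesis enzymes, 14 were lower and 12 higher, with a median of -0.02. GPAT3, a glycerol-3-phosphate acyltransferase of the endoplasmic reticulum, rose in MDA-MB-231 at 1.42, in MDA-MB-157 at 1.29 and in SUM149 at 2.52, where GPAM was at 0.79, -0.36 and -0.23. In MDA-MB-157 and in SUM149, GPAT3 was above background on 3 of 4 arrays. Of 17 genes of uptake, storage, lipolysis and oxidation, 7 were lower and 10 higher, with a median of 0.07. PLIN2, the lipid droplet coat perilipin 2, rose in MDA-MB-231 at 1.96, as did ABHD5, a lipase activator, at 1.61 and CPT1A, which admits fatty acids to mitochondria, at 1.23.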

How the data were processed

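RNA of 5 TNBC lines, WHF-treated or untreated, was measured on Illumina expression beadchips with 20 arrays (2 per line and treatment). The authors read bead intensities with BeadStudio (version 3 in the methods), and the deposited table holds, for 47319 probes, intensities without normalization and the detection p-value of each probe against negative-control beads. A second deposited table, of 47323 probes, holds the authors' quantile-normalized intensities and served as an alternative. Probes were named through a platform annotation (30112 with 1 symbol, 8 with several and 17199 with none), whose array version may differ from the version 3.0 the methods name. Promoter windows came from RefSeq on GRCh38.p14.

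Intensities were background-corrected by normexp using the detection p-values (offset 16), quantile-normalized and log2-transformed in limma 3.58.1 (R 4.3.3). Summaries used Python 3.11.15, pandas 2.3.3, NumPy 2.4.6 and SciPy 1.17.1. Probes with a detection p below 0.05 on 10 or more of 20 arrays were tested, and "above background" means a detection p below 0.05. Over the lines, A and B were averaged and the line was a block. Within lines, 1 fit held all 10 groups. Each p was adjusted by the Benjamini-Hochberg method over all tested probes. Calls needed an adjusted p below 0.1, and in single lines more than 2-fold. The study's comparison over the lines, in its training set, used a false discovery rate below 0.1. A limit of more than 2-fold was added in its search among membrane surface molecules. No fold limit was used over the lines here. With both limits over the lines, ACSS2, at 1.97-fold, would not be called, while its second probe, at 2.04-fold (adjusted p = 0.0692 by limma), would. The scripts were tested on simulated data.

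Values on every array are given for genes called over the lines or in at least 3 lines and for the gene with the largest mean change of each step, plus ACSL1. The members and lists were chosen with earlier results of these data known. The methods describe a paired design with a second, independent preparation of the lines, so A and B were taken as pairs in an alternative. Deviations of same-letter arrays from their group means correlated at 0.0399 in MDA-MB-231, 0.0589 in BT549, 0.299 in MDA-MB-157, 0.226 in MDA-MB-468 and 0.154 in SUM149. The number of arrays limits the precision, and p-values measure the spread between these arrays and lines. All arrays of 1 line lay on 1 chip, so chip and treatment were not confounded. Both basal-like lines shared a chip, BT549 and MDA-MB-157 shared another, and MDA-MB-231 lay on its own. Differences between the classes, or between lines of different chips, therefore cannot be told apart from chip. The alternatives were other background corrections and offsets, the authors' intensities, stricter and looser detection filters, the mean of a gene's probes, other thresholds, a replicate block, and leaving out each line or array.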

Additional observations from a re-analysis of the deposited data

Results flagged for a closer look

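The responses of 16 genes differed between the 5 lines by limma's interaction test, with adjusted p-values over all tested probes. FADS2 (adjusted p = 0.000115) and AGPAT4 (0.000693) were called lower in 3 lines each and were above background on at most 1 of 4 arrays in MDA-MB-468. ACACB (0.00487) was lower in 5 of 5 lines with different sizes, and its treated arrays were not above background in MDA-MB-231, BT549 and MDA-MB-157. ACSL1 (0.000370) was lower in MDA-MB-468 and SUM149 and higher in the other 3 lines. AGPAT5 (0.00176) was lowest in SUM149 and ELOVL6 (0.00323) in BT549, with 1 call each. GPAM (0.00364) was higher in MDA-MB-231 alone, on both probes, and SREBF1 (0.00511) was higher in SUM149 alone, without a call there. ACSL4 (0.0307), ACSL5 (0.0366) and ME1 (0.0557) had both signs among the lines. PNPLA3 (0.0470) was at least 1.34-fold lower in MDA-MB-468, where it was above background on 0 of 2 treated arrays, and was not above background in MDA-MB-231 and MDA-MB-157. ACACA (0.0374), LPIN1 (0.0752), FASN (0.0845) and SLC25A1 (0.0927) were lower in 5 of 5 lines with different sizes. The second ACACA probe did not pass the interaction test (adjusted p = 0.300). Of all tested probes, 41.1% passed the same limit. Each group had 2 arrays, so no search for outlying arrays was made.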

How the results depend on the processing

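SCD, ACSS2 and LPIN1 had negative means over the lines under every alternative run, but their calls were lost in 3, 9 and 7 alternatives. The count of genes that fell over the lines, 3 as reported, was 5 with the authors' intensities, with no background correction and with an offset of 50, 7 with probes detected on 20 of 20 arrays, 6 with an intensity trend in eBayes and 1 at an adjusted p below 0.05. The genes added were FASN and ACLY in each of the first 5 of these settings, with FADS1 or ACACA in some. With the replicate block (line and letter pairs) it was 15, with 2 higher instead of 0, and the block changed no count by line. Leaving out a line or a replicate letter gave 0 to 2. The median over the genes lay between -0.35 and -0.20. Without the fold limit, SUM149 had 17 lower and 2 higher genes, BT549 15 and 2, MDA-MB-231 13 and 3, and MDA-MB-468 8 and 0. BT549 had 4 with the 20-array filter, which tested fewer genes. MDA-MB-157 had 3 with the authors' intensities, with no background correction and with the mean of a gene's probes, and 1 to 6 with 1 array left out. FASN in MDA-MB-468 lost its call without either treated replicate or without untreated replicate A, SLC25A1 in MDA-MB-231 without treated replicate A, FADS1 in MDA-MB-231 without untreated replicate A, FADS1 in BT549 without treated replicate B, ACLY in BT549 without untreated replicate B and ACSS2 in SUM149 without treated replicate A. Genes near 0 over the lines changed sign with 1 line or letter left out. Their means ran from -0.060 to 0.34 for DGAT2, -0.22 to 0.079 for ELOVL4, -0.095 to 0.12 for FADS3, -0.12 to 0.054 for AGPAT1, -0.020 to 0.032 for AGPAT2, -0.31 to 0.10 for ACSL1, -0.064 to 0.13 for ELOVL1 and -0.42 to 0.037 for AGPAT5. The causes were not tested. A lone array left in a group was assumed to vary like the others. Signals at background limit ACACB, AGPAT4, FADS2, ELOVL7 and PNPLA3.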

Other observations

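Beyond the synthesis genes, storage and turnover genes gave calls in both directions in single lines. MGLL, the lipase that completes the breakdown of triglyceride, rose in MDA-MB-157 at 1.44 and in MDA-MB-468 at 1.12 on the log2 scale. FABP5, a fatty acid carrier of epithelial cells, rose in SUM149 at 1.69. In BT549, SLC27A3, an acyl-CoA synthetase of the fatty acid transport family, fell at -1.61, the droplet coat gene PLIN3 at -1.25 and CPT2, which completes the entry of fatty acids into mitochondria, at -1.10. ELOVL3, an elongase outside the list, rose in BT549 at 1.46, where 2 of 4 arrays were above background. In SUM149, MECR and LCLAT1, a mitochondrial reductase and a lysocardiolipin acyltransferase, fell at -1.39 and -1.53, and MBOAT1, a lysophospholipid acyltransferase, rose at 1.09. These lists were chosen with earlier results known.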
